A study of Mus musculus with 3 samples.

Results

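RNA of one LSD1 transgenic mouse line, Line 6, was set against RNA of wild type mice across the whole measured transcriptome. Each genotype was measured on 1 Affymetrix GeneChip array, so the comparison uses 2 of the 3 arrays of the series. All mice were 10 weeks old and on the C57BL/6J background. The transgenic strain carries Tg(Ly6a-KDM1A*v2), a construct named after Ly6a, the gene of the surface protein Sca-1, and KDM1A, the gene of LSD1. Line 3, a second line with the same construct, served to check directions. Both lines are set against the same single wild type array, so agreement between them is not independent. From every genotype, bone marrow cells that were positive for Sca-1 and negative for lineage markers were taken, and their RNA was amplified before hybridisation. The sources used here do not give the number or sex of the mice behind each array, or which part of Ly6a the construct holds.

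LSD1 is a histone demethylase that removes methyl groups from histone H3 at lysine residues near promoters and enhancers. It works with the scaffold CoREST, histone deacetylases and DNA-binding repressors such as GFI1 and GFI1B, and in blood it is known for silencing genes of other lineages during differentiation. The Sca-1-positive, lineage-negative fraction of marrow is enriched for stem and early progenitor cells, but can also hold early lymphoid cells and non-haematopoietic cells.

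Of 18193 genes named on the array, 10864 were bright enough to be compared. A gene was represented by its brightest probe set, and its difference is the log2 of Line 6 intensity plus 16 minus the log2 of wild type intensity plus 16. Intensities are linear probe set values as deposited. Genes at least 2-fold apart on this scale are called higher or lower. Because each genotype rests on a single array, no difference below has a test or a replicate SD, and array-to-array and mouse-to-mouse variation cannot be told apart from genotype.

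In Line 6, 279 genes were higher than in wild type (2.57% of those compared) and 262 were lower (2.41%). The remaining 10323 genes lay within 2-fold. The median difference over all genes was 0.06 on the log2 scale with an SD across genes of 0.48, and the 5th and 95th percentiles were -0.71 and 0.77. In Line 3, which shares the wild type array, 388 genes were higher (3.57%) and 484 lower (4.46%), with an SD across genes of 0.60. The higher genes of Line 6 were dim: their median intensity was 84.6 in wild type and 251 in Line 6. Of them, 150 lay under the wild type array's median, so these were bright enough to compare only on a transgenic array. The lower genes were brighter, with a median of 726 in wild type and 253 in Line 6. Among the 5922 genes above the 75th percentile on both arrays, 15 were higher (0.253%) and 83 were lower (1.4%).

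The split between higher and lower genes rests on how the arrays are scaled. As deposited, 51.6% of the genes past 2-fold were higher. Quantile normalization made that share 34.0%, with 1.63% of all genes higher and 3.17% lower. Cyclic loess made it 32.3% (1.57% higher, 3.3% lower). Centring each array on its median made it 23.5% (1.33% higher, 4.31% lower) and moved the median of all genes to -0.17. Of the 262 lower genes, 254, 259 and 262 stayed past 2-fold under quantile, cyclic loess and centred scaling, against 177, 169 and 144 of the 279 higher genes. Brightness moved with the direction as well. In the dimmest of 8 equal bins, 10.5% of genes were higher and the median difference was 0.21. In the brightest bin 1 gene was higher and 15 were lower, with a median of 0.01. The part of scaling and brightness in the higher calls was not tested.

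**Figure D1:**
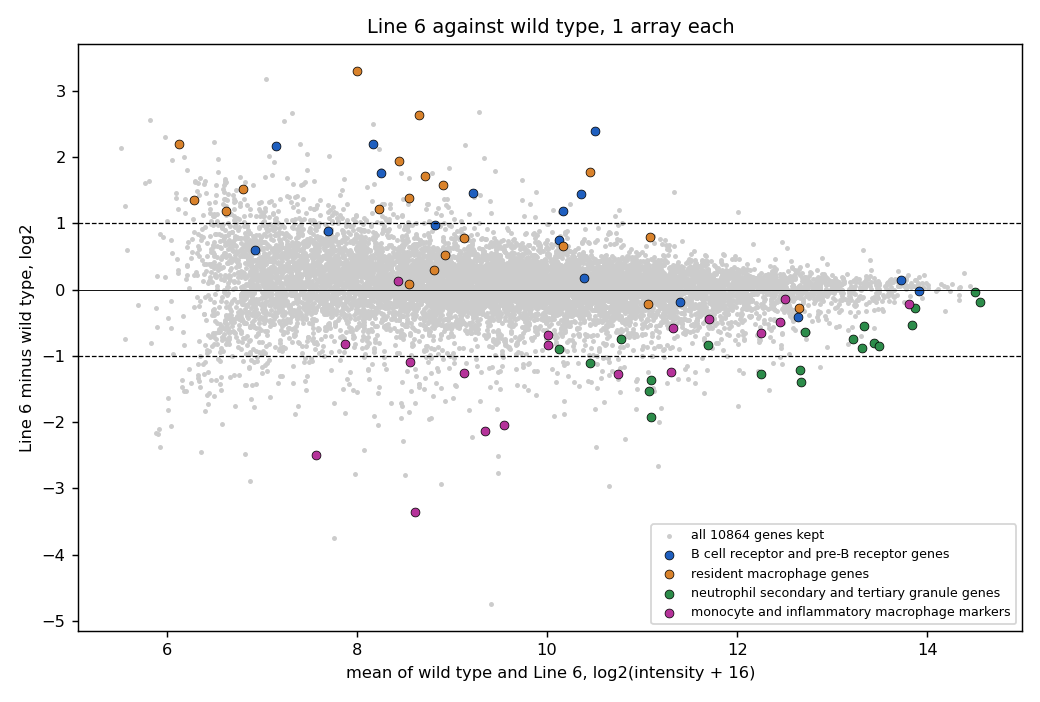
Difference between Line 6 and wild type in log2(intensity + 16) against the mean of the same log2 values on both arrays, 1 point per gene, for the 10864 genes compared, with 4 gene lists in colour and 2-fold as dashed lines. The spread narrows toward bright genes, and the coloured points run from Cd5l at 3.30 among resident macrophage genes to Vcan at -3.35 among monocyte markers.

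Probe sets that the annotation used here does not name leaned further toward Line 6. Of 2962 such probe sets, 388 were higher in Line 6 (13.1%) and 52 were lower (1.76%), against 2.58% higher among 20784 named probe sets. In Line 3 the unnamed probe sets were 3.68% higher. The gap held at like brightness: in the dimmest of 4 equal brightness bins 18.1% of unnamed and 7.84% of named probe sets were higher in Line 6, and in the next bin 12.5% and 2.56%. Genes that RefSeq classes as long non-coding RNAs showed 19 higher of 311 (6.11%) and 10 lower, where Line 3 had 6 higher and 28 lower. Protein-coding genes showed 252 higher of 10445 (2.41%). These shares were not matched for brightness: median wild type intensity was 175 for the long non-coding RNAs and 749 for protein-coding genes. Over all genes, 10.5% were higher in the dimmest of 8 equal bins and 4.57% in the next. What these unnamed probe sets detect was not analysed here.

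**Figure D2:**
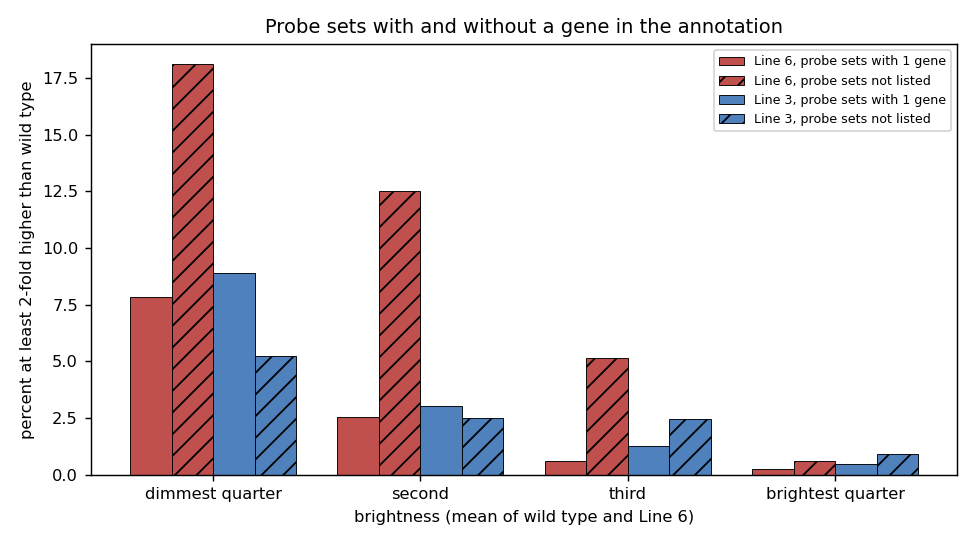
Percent of probe sets at least 2-fold higher than wild type, in 4 bins of brightness, for probe sets with and without a gene name, in Line 6 and Line 3. In Line 6 the unnamed probe sets stand at 18.1%, 12.5% and 5.15% in the 3 dimmer bins, and named ones at 7.84%, 2.56% and 0.625%.

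The targeted gene was checked first. The mouse Kdm1a probe set that represents the gene read 2104 on the wild type array, 2575 on the Line 6 array and 2979 on the Line 3 array. A second probe set read 916, 911 and 1482. Line 6 thus stood 0.29 above wild type by the one and 0.01 below it by the other, so the array does not settle the level of LSD1 RNA in Line 6. The sources used here do not say whether either mouse probe set can detect KDM1A of the construct. Of 24 measured genes of LSD1 complexes and partners, none was past 2-fold, and their median difference was 0.07 beside 0.06 over all genes.

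The genes were read against 56 lists covering lineages, pathways and cell processes. On these lists stand 65 of the 279 higher genes and 53 of the 262 lower ones, so most genes past 2-fold belong to none of them. Among them 11 lists had a median at 0.50 or more above wild type and 4 had a median at least as far below. None of these 15 changed sign under another scaling, while lists near 0 often did. Centring lowers every difference by the same amount, which took the overall median from 0.06 to -0.17. List medians chosen to be 0.50 or more from 0 could not change sign under that shift, so no support is drawn from this.

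**Figure D3:**
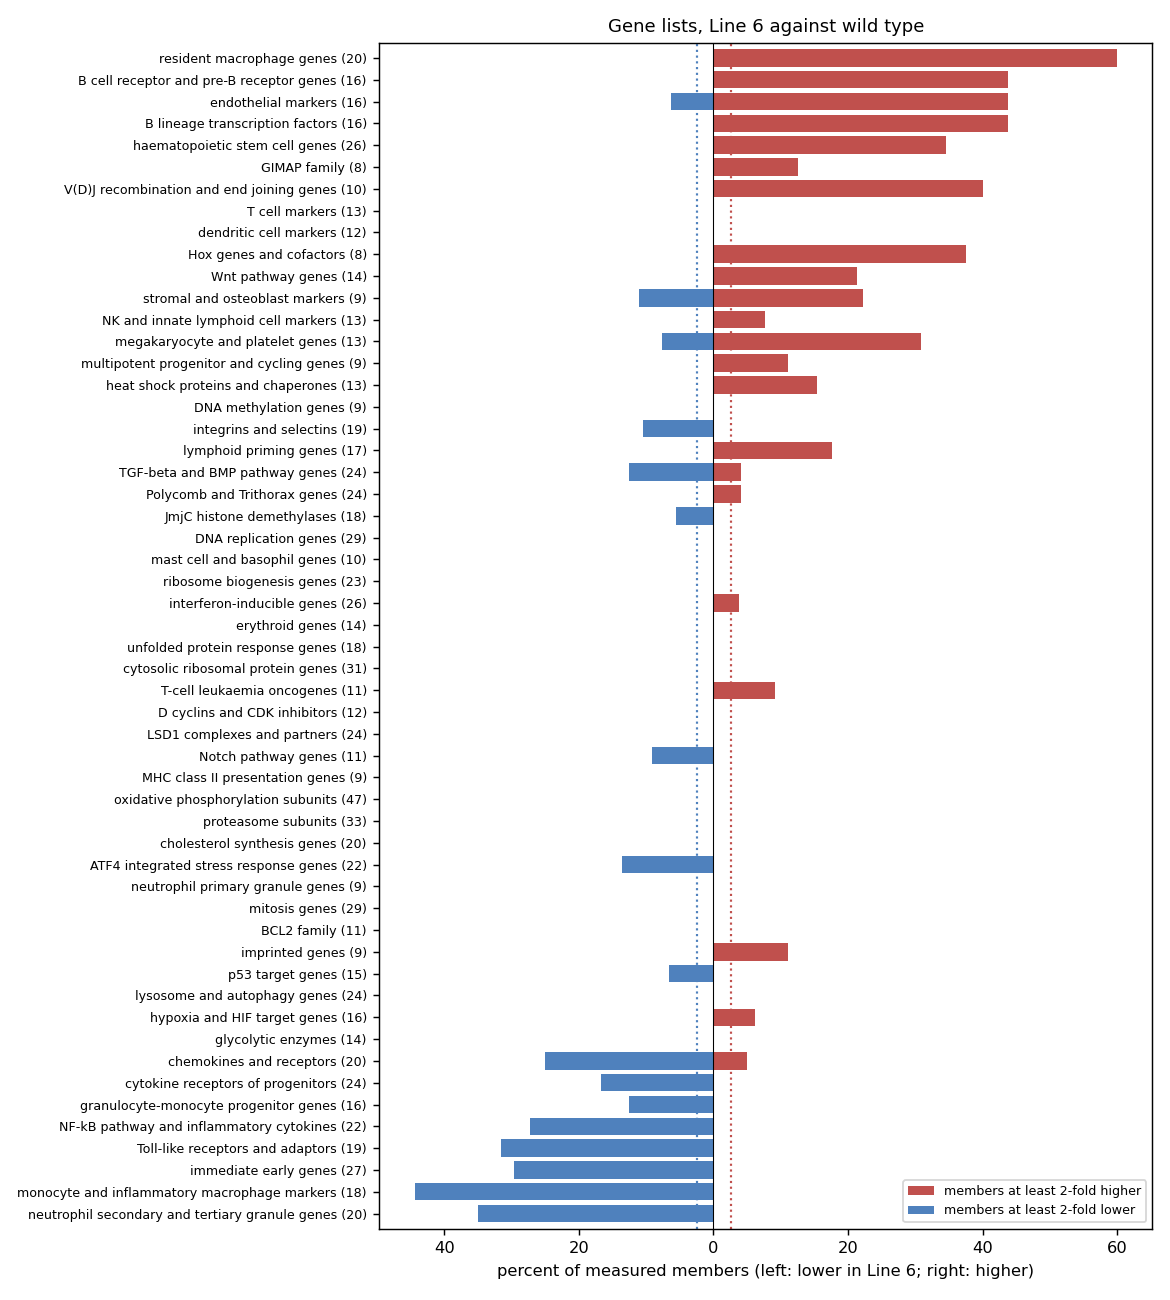
Percent of measured members at least 2-fold higher in Line 6 (bars to the right) or lower (bars to the left) for each list with at least 8 measured genes, ordered by list median, with the number of measured genes in parentheses. Dotted lines mark the shares over all genes, 2.57% higher and 2.41% lower, and the longest bars are the 12 of 20 resident macrophage genes on the right and the 8 of 18 monocyte markers on the left.

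Genes of early B cell development formed a large group on the higher side of Line 6. B cells arise from progenitors in which TCF3 and EBF1 switch on the lineage programme and PAX5 fixes it. RAG1 and RAG2 then cut the immunoglobulin genes, and the surrogate light chain made from VPREB and IGLL1 forms the pre-B cell receptor. Of 16 measured B lineage transcription factors, 7 were higher in Line 6 and none lower, with a median difference of 0.80. Of 16 measured genes of the B cell and pre-B cell receptors, 7 were higher and none lower, with a median of 0.92. Of 10 measured recombination genes, 4 were higher and none lower. Over all genes 2.57% were higher.

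Promoter sequence is shown for the receptor genes of this group that carry the E-box preferred by TCF3-type factors, because these genes were higher together. The letters are the 250 bases before each RefSeq start in GRCm38.p6, on the strand of the gene, and capitals mark CAGGTG or its reverse complement CACCTG. Of the 7 receptor genes past 2-fold, 5 had a promoter entry and 3 held the motif. The motif stood in 5657 of 32851 promoters of the same length (17.2%).
Vpreb1: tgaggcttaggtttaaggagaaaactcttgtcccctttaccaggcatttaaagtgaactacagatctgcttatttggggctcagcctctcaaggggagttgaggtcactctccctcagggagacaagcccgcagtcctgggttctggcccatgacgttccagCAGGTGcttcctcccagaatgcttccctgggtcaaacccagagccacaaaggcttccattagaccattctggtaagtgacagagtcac
Cd79a: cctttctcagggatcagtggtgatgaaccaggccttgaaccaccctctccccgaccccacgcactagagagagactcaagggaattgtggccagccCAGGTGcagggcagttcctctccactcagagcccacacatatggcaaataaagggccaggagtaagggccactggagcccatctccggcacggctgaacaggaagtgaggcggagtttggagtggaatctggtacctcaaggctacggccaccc
Blnk: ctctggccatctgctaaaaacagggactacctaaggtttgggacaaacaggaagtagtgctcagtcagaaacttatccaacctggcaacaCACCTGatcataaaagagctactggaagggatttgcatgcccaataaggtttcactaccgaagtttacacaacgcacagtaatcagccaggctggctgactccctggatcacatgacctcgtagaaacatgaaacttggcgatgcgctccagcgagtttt
These windows lie at chr16:16869256-16869505 on the minus strand for Vpreb1, chr7:24897247-24897496 on the plus strand for Cd79a and chr19:40994222-40994471 on the minus strand for Blnk. A match describes the letters and does not show that a factor binds there.

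Among the transcription factors, Bach2, a repressor needed for early B cell differentiation, read 248 on the wild type array, 1179 on the Line 6 array and 370 on the Line 3 array. All 3 of its probe sets were higher in Line 6, the least by 2.15. Pax5 read 128, 610 and 73.4, so it was 4.33-fold higher in Line 6 and lower in Line 3. Ebf1 read 148, 556 and 92.8, and the smallest difference among its 4 probe sets in Line 6 was 1.81. Lef1, a Wnt-responsive factor of early lymphoid cells, read 251, 933 and 197. For Pax5, Ebf1 and Lef1 the Line 6 array is the high one of the 3, and Line 3 lies under wild type.

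Spib, an ETS factor of B cells and plasmacytoid dendritic cells, read 551, 1551 and 574. Sox4, which supports pro-B cell survival, read 516, 1347 and 1165, and Foxo1, which drives Rag expression, read 375, 845 and 711. Sox4 and Foxo1 were above wild type in both lines. Pou2af1, Ikzf3 and Tcf3 stood within 2-fold at 0.81, 0.80 and 0.76, and Ikzf1, a factor of all lymphoid lineages, at -0.16.

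Among the receptor genes, Vpreb1, part of the surrogate light chain, read 616 on the wild type array, 3303 on the Line 6 array and 521 on the Line 3 array. Vpreb3 read 119, 600 and 124. Blk, a SRC family kinase of B cells, read 51.2, 284 and 105, with wild type under that array's median. Line 6 alone stands far from wild type for Vpreb1 and Vpreb3. Cd79a and Cd79b, the signalling chains of the receptor, read 780, 2137 and 983, and 747, 1717 and 1181. Blnk, the adaptor below the receptor, read 150, 546 and 323, and Cd72, a B cell surface protein, 345, 969 and 543. For these 4 genes Line 6 was again the highest of the 3 arrays, with Line 3 between it and wild type. Ms4a1, the CD20 gene of later B cells, was dimmer and within 2-fold, at 83.5, 134 and 35.4.

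**Figure D4:**
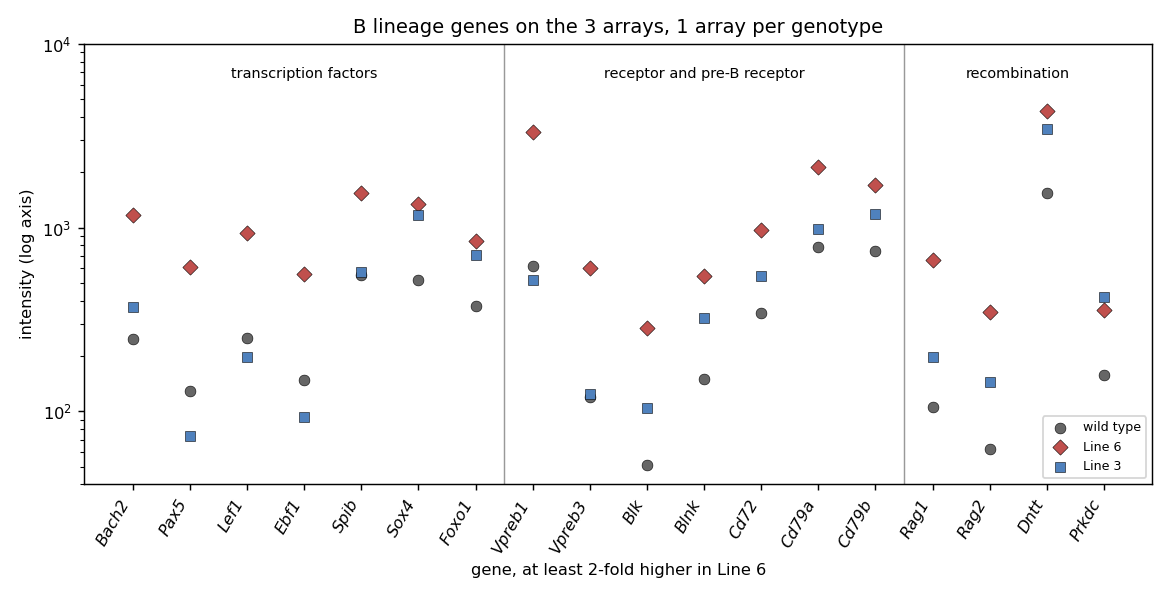
Intensity on a log axis of B lineage genes on the wild type, Line 6 and Line 3 arrays, 1 point per array. Line 6 is the highest of the 3 for Vpreb1 at 3303, Bach2 at 1179 and Pax5 at 610, while Line 3 stays near wild type for Vpreb1 at 521.

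Probe sets for immunoglobulin genes did not move as one. Igll1 differed by 0.75 at its brightest probe set, which read 846 in wild type and 1429 in Line 6, and by 1.93 at the other, which read 460 and 1802. Ighm, the heavy chain constant region gene, has 9 probe sets bright enough to compare. The brightest differed by 0.15, and 3 others by 0.07 to 0.59, but 5 lay between -1.88 and -1.48 in Line 6, with wild type intensities from 8900 to 14649. In Line 3 those 5 lay between -0.79 and -0.62. Heavy chain transcripts share near-identical segments, so which of them each probe set detects is uncertain, and no direction can be given for Ighm.

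The recombination genes past 2-fold were Rag1, Rag2, Dntt and Prkdc. Rag1, a recombinase subunit, read 105 on the wild type array, 666 on the Line 6 array and 198 on the Line 3 array, a 5.64-fold difference in Line 6. Rag2, the other subunit, read 62.7, 346 and 144, with wild type under that array's median. Dntt, the polymerase that adds bases at the joins, read 1539, 4305 and 3424, and all 3 of its probe sets were higher in Line 6, at 1.31, 1.40 and 1.47. Prkdc, the end-joining kinase, read 157, 357 and 420. Rag1 and Rag2 were much higher in Line 6 than in Line 3, whereas Dntt and Prkdc stood well above wild type on both arrays. The 2 lines share the wild type array, and the difference between them has no test.

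Markers of other lymphoid and related cells gave the setting for the B lineage values. In bulk RNA, more cells of a type and more RNA per cell cannot be told apart. Of 13 measured T cell markers none was past 2-fold, but 11 lay above 0 and 2 below. Their median was 0.65 and their summed intensity 4776 against 3485 in wild type. Lat, Il2ra and Gata3 differed by 0.99, 0.82 and 0.76. Cd3e, a T cell receptor chain, read 258, 292 and 133, and Cd3d, 1 of the 2 below 0, differed by -0.34. All 12 measured dendritic cell markers lay above 0 with none past 2-fold, and 9 MHC class II genes had a median of 0.05. The 8 GIMAP genes, small GTPases of lymphocytes, all lay above 0 with a median of 0.73, and Gimap1 was past 2-fold at 1.29. B cell and pre-B receptor genes summed to 44086 in wild type and 51030 in Line 6. The brightest Ighm probe set alone made 12850 and 14260 of those sums, and Cd24a made 15595.5 and 15329.9. Of the 16 genes summed, 13 lay above 0 and 3 below, Cd24a among the latter. Other Ighm probe sets of similar brightness were lower in Line 6. The sums therefore rest on the probe set taken for Ighm, and no direction is drawn from them. The share of B lineage cells in each sample was not tested.

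Stem cell genes were the other progenitor group on the higher side. Of 26 measured, 9 were higher in Line 6 and none lower, with a median of 0.74. After centring, 5 were higher and 1 lower. Hoxa9, a homeobox factor of stem and progenitor cells, read 356 on the wild type array, 963 on the Line 6 array and 1176 on the Line 3 array. Mecom, a regulator of stem cell quiescence, read 69.6, 260 and 286, and Procr, the stem cell surface marker EPCR, read 32.3, 130 and 194. These 3 were low in wild type and high on both transgenic arrays. Angpt1, Ndn, Prdm16, Esam, Robo4 and Meis1 were the other 6 past 2-fold. Wild type intensities of 5 of the 9 lay under that array's median, so these passed the brightness filter only through a transgenic array.

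Receptors that mark progenitors were within 2-fold in Line 6. Kit, the stem cell factor receptor, read 603, 899 and 923, and Cd34 read 971, 1838 and 2315. Flt3, which marks lymphoid-primed progenitors, stood at 0.14 in Line 6 and 0.99 in Line 3. Il7r, the interleukin-7 receptor of lymphoid progenitors, was within 2-fold at 1059, 2034 and 1733.

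Of 8 measured Hox genes and cofactors, 3 were higher as deposited, with a median of 0.57, but 1 under each of the other 3 scalings. The 3 were Hoxa9, Hoxa5 at 32.8, 93.0 and 128, and the cofactor Meis1 at 161, 344 and 365. Hoxa5 lay under the wild type array's median, so it passed the filter only through a transgenic array. Hoxb4, a homeobox factor of stem cells, lay below wild type in Line 6, within 2-fold, at 743, 471 and 753. Genes of the Hox list therefore did not share 1 direction.

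Of 16 endothelial markers 7 were higher and 1 lower, with a summed intensity of 5721 against 3385 in wild type. The count of 7 became 5 under quantile scaling, 4 under cyclic loess and 3 after centring. Wild type intensities of 5 of the 7 lay under that array's median, so these too passed the filter only through a transgenic array. Esam and Robo4 stand on both the stem cell and the endothelial list. Stab2, a scavenger receptor of sinusoids, read 84.2, 291 and 219, and Fabp4, a fatty acid carrier, read 440, 1004 and 1113. Both were above wild type in each line. Aplnr, the apelin receptor, was the lower gene at 225, 92.0 and 33.0. Cdh5, the defining endothelial cadherin, differed by -0.01, while Emcn, shared by endothelium and stem cells, differed by 1.37. Megakaryocyte genes had 4 of 13 higher, among them Pf4, a platelet chemokine, at 693, 1609 and 1024, and Rab27b, a granule-docking GTPase, at 37.2, 143 and 177. After centring, 1 of the 13 was higher, and 2 of the 4 had wild type intensities under that array's median. The gene lower among them was Thbs1, a matrix glycoprotein, at 1087, 448 and 601. The part of endothelial and megakaryocytic cells in the stem cell list was not tested.

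Genes of maturing neutrophils and inflammatory monocytes stood on the lower side of Line 6. Of 20 measured genes on a list of neutrophil secondary and tertiary granules, 7 were lower, none was higher and all 20 lay below 0. Their median was -0.85. The list also holds genes of maturing neutrophils that are not granule genes, such as the receptor Cxcr2 and S100a8 and S100a9. After centring, 12 were lower. Over all genes 2.41% were lower. Of 18 monocyte and inflammatory macrophage markers, 8 were lower and the median was -0.83. In Line 3, set against the same wild type array and so not an independent check, the same lists had 14 and 10 lower. The primary granule genes, made earlier in the same lineage, had none of 9 past 2-fold and a median of -0.03. Summed intensity of the later granule list was 209950 in wild type and 137324 in Line 6. Of these sums, S100a8 made 25535 and 22487, and S100a9 made 23431 and 22790. The part of fewer maturing neutrophils in the other differences was not tested.

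Mpo, the myeloperoxidase of primary granules, read 15770 on the wild type array, 15952 on the Line 6 array and 16895 on the Line 3 array. Mmp8, a collagenase stored in later granules, read 7586, 3111 and 1210, and Mmp9, a gelatinase, read 9847, 4243 and 1598. Cd177, a neutrophil surface protein, read 10596, 4024 and 2075. Mpo was level across the 3 arrays, whereas the later genes were highest in wild type, lower in Line 6 and lowest in Line 3. Cxcr2, the receptor that draws neutrophils out of marrow, followed the same order at 3500, 1353 and 648, as did Itgb2l, an integrin of maturing granulocytes, at 4233, 1106 and 586. Ltf, lactoferrin, was within 2-fold at 14757, 8396 and 6801, and Camp and Ngp differed by -0.54 and -0.27.

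Among the monocyte markers, Vcan, a matrix proteoglycan of monocytes, read 1233 on the wild type array, 106 on the Line 6 array and 75.4 on the Line 3 array, and all 4 of its probe sets were at least 3.12 lower on the log2 scale in Line 6. Cd14, the co-receptor for lipopolysaccharide, read 436, 63.7 and 132. Clec4e, a lectin that senses damaged cells, read 1499, 351 and 154, and Trem1, an amplifier of inflammatory signals, read 1352, 294 and 126. All 4 were lower on both transgenic arrays. Itgam, the CD11b integrin, read 2653, 1088 and 713. The 10 list members within 2-fold include Ccr2, F13a1 and Ms4a6c at -0.58, -0.50 and -0.44, and Cx3cr1 at 0.13. The part of mature myeloid cells in these values was not tested, and monocytes were not separated from neutrophils.

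Toll-like receptors and their adaptors showed 6 of 19 lower, with a median of -0.66. Tlr6, which pairs with TLR2, differed by -1.71 and Tlr2 by -1.26. Tlr5, the flagellin receptor, differed by -1.19, and Tlr13 and Tlr8, which sense RNA, by -1.12 and -1.11, and Cd14 was the other one past 2-fold. Tlr4, the lipopolysaccharide receptor, was within 2-fold at -0.68. Cytokine receptors had 4 of 24 lower: Il1r2, the decoy receptor for interleukin-1, at 1851 and 259, then Csf3r, Il4ra and Il1rap at -1.35, -1.25 and -1.20.

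Resident macrophage genes went the other way. Of 20 measured, 12 were higher in Line 6 and none lower, with a median of 1.28, and Line 3 had 13 higher. Cd5l, a protein secreted by tissue macrophages, read 65.4 on the wild type array, 786 on the Line 6 array and 939 on the Line 3 array. Fcna, a ficolin, read 146, 987 and 1581, and Mrc1, the mannose receptor, read 162, 667 and 926. The complement genes C1qa, C1qb and C1qc, which neighbour each other, differed by 1.21, 1.78 and 1.72, with C1qb at 739, 2573 and 3107. Spic, a factor of iron-recycling macrophages, differed by 1.34. Both transgenic arrays were high and wild type low for these genes. The 2 lines share that wild type array, so this agreement is not independent. Csf1r, the receptor on which macrophages depend, and Slc40a1, the iron exporter, differed by -0.28 and -0.22. Wild type intensities of 5 of the 12 lay under that array's median, so these passed the filter only through a transgenic array. Summed intensity of the list was 15612 in wild type, with 22356 and 26552 for Lines 6 and 3.

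**Figure D5:**
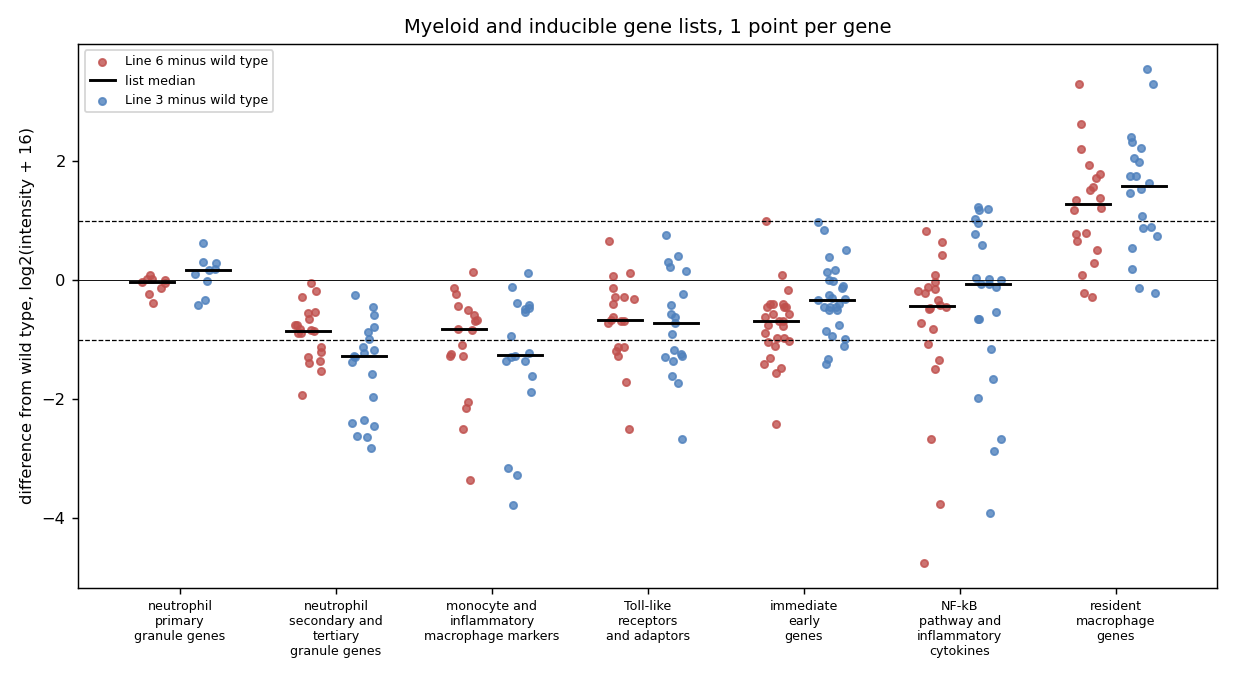
Differences from wild type in log2(intensity + 16) for myeloid and inducible gene lists, 1 point per gene, for Line 6 and Line 3, with list medians as bars and 2-fold as dashed lines. In Line 6 the primary granule list centres on -0.03, the later granule list on -0.85 and the resident macrophage list on 1.28.

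Most rapidly induced genes lay below wild type in Line 6, a minority of them by at least 2-fold. Immediate early genes are switched on within minutes by growth factors, stress and cell handling, and NF-kB targets by inflammatory signals. Of 27 measured immediate early genes, 8 were lower and none higher, with a median of -0.69. In all, 25 lay below 0 and 2 above. Over all genes 2.41% were lower and 57.6% lay above 0. Egr1, a zinc finger factor, read 3690 on the wild type array, 1313 on the Line 6 array and 4086 on the Line 3 array. Fos read 7981, 3915 and 7276, and Ier3 read 2268, 1098 and 3242. For these 3 genes Line 6 alone was low. Atf3, a stress-induced factor, read 609, 101 and 233, and Klf2 stood at -1.31 in Line 6 and -1.41 in Line 3, so these were lower in both lines. The sources used here do not give the time from dissection to lysis, and the part of handling in these values was not tested.

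NF-kB pathway genes and inflammatory cytokines had 6 of 22 lower and a median of -0.43, with 18 below 0 and 4 above. Cxcl2, a neutrophil-attracting chemokine, held the widest difference of the whole comparison, at 3512 on the wild type array, 116 on the Line 6 array and 543 on the Line 3 array, 26.8-fold lower in Line 6. Il1b, interleukin-1 beta, read 5778, 898 and 370. Ptgs2, the inducible cyclooxygenase, read 782, 43.1 and 187. Ccl3, another chemokine, read 4638, 2635 and 9008, and Il6 stood at -0.72 in Line 6 and 1.24 in Line 3. Cxcl2, Il1b and Ptgs2 were low on both transgenic arrays, while Ccl3 and Il6 lay under wild type only in Line 6.

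The Cxcl2 promoter is shown because this gene moved most and its window holds an NF-kB motif, in capitals, in the 250 bases before its RefSeq start at chr5:90903649-90903898 of GRCm38.p6, plus strand. The motif searched was GGGA, any base, then TTTCC, on both strands, and it stood in 117 of 32851 promoters (0.356%), and in 1 of the 5 NF-kB list genes past 2-fold that had an entry.
Cxcl2: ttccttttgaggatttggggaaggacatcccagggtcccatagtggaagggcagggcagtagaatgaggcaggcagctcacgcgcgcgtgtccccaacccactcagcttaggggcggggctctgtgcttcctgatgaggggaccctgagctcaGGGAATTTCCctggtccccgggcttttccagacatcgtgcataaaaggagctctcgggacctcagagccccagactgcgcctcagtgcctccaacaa

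Other stress programmes were mostly level. Heat shock genes had 2 of 13 higher and all 13 above 0: Hspa1b, an inducible HSP70 chaperone, read 87.5 on the wild type array, 403 on the Line 6 array and 168 on the Line 3 array, and Hspa1a read 50.3, 152 and 57.2. Both lay under the wild type array's median, so they passed the filter only through a transgenic array. These near-identical neighbouring genes can share probes, so they may be 1 signal. No gene of the unfolded protein response was past 2-fold among 18. ATF4 targets had 3 of 22 lower, Trib3, Sesn2 and Chac1, at -1.32, -1.17 and -1.12. Interferon-inducible genes had 1 of 26 higher, Iigp1, an immunity-related GTPase, at 1.93, also with wild type under that array's median. Hypoxia targets had 1 of 16, Adm, a vasodilator peptide, at 1.55 in Line 6 and -0.01 in Line 3.

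Signalling and chromatin lists held few genes past 2-fold. Of 14 Wnt pathway genes 3 were higher: Lef1, Tcf7l2 at 1.29 and Axin2, a feedback inhibitor, at 1.22. Of 24 TGF-beta and BMP genes, Acvrl1, Inhba and Bmpr1a were lower at -2.78, -2.51 and -1.03 and Tgfbr3 was higher at 1.01. Jag1, a Notch ligand, was the only one of 11 Notch genes past 2-fold, at -1.43. Kdm6b, a demethylase of histone H3 induced by inflammatory signals, stood at -1.51 in Line 6 and -1.69 in Line 3. Cbx2, a Polycomb subunit, stood at 1.30 in Line 6, with wild type under that array's median.

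Lists of basic cell functions lay near the background. Among 47 oxidative phosphorylation subunits, 31 cytosolic ribosomal proteins, 33 proteasome subunits, 29 DNA replication genes and 29 mitosis genes, none was past 2-fold. Their medians were 0.05, 0.11, 0.04, 0.16 and -0.04, beside 0.06 over all genes. These shifts are smaller than the change in the overall median from one scaling to another, so no direction is given for them.

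Several of the most changed genes belong to none of the lineage lists. Bfsp2, a lens filament protein, read 27.9 on the wild type array, 380 on the Line 6 array and 34.7 on the Line 3 array. Gfra2, a receptor for the GDNF family ligand neurturin, read 232, 1564 and 537, but the least of its 4 probe sets differed by 0.56. Igf1, insulin-like growth factor, read 47.5, 384 and 445, and the lesser of its 2 probe sets differed by 2.39. Bfsp2 was high in Line 6 only, Igf1 on both transgenic arrays. Igfbp5, an IGF-binding protein, read 71.9, 346 and 96.6. Bfsp2, Igf1 and Igfbp5 lay under the wild type array's median, so they passed the brightness filter only through a transgenic array. On the lower side, Orm1, an acute-phase plasma protein, read 1292, 155 and 119, Hcar2, the niacin receptor, 303, 27.1 and 86.9, and Cldn1, a tight junction protein, 773, 146 and 141.

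Genes bright on both arrays gave a further view. On the higher side, Ptprcap, a partner of the CD45 phosphatase, read 760, 1872 and 1636. Ctla2a, a cysteine protease inhibitor, read 1128, 2603 and 3079, and Aff3, a nuclear protein of lymphoid cells, 571, 1257 and 1254. All 3 were above wild type in both lines. Aff3 differed by 1.12 at this probe set and by 0.57 at its other one. On the lower side, Lrg1, a secreted glycoprotein of neutrophils, read 4621, 1149 and 543, and Bst1, an ectoenzyme of myeloid cells, 2207, 588 and 111. Siglece, an inhibitory receptor of neutrophils and monocytes, read 5534, 1857 and 1077. For these 3 Line 6 lay between wild type and Line 3.

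A gene with several probe sets offers a check within the array. The higher genes had 147 other probe sets bright enough to compare, of which 142 differed in the same direction and 63 by at least 2-fold. The lower genes had 102, of which 99 differed in the same direction and 72 were past 2-fold. Among genes with several probe sets, Socs3, a feedback inhibitor of cytokine signalling, read 627, 180 and 149, and Il13ra1, a chain of the interleukin-13 receptor, read 1627, 531 and 398. Cecr2, a bromodomain protein, read 115, 399 and 60.8, high in Line 6 alone. Probe sets of 1 gene share the same RNA and array, so this bears on the probes and not on the mice.

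Sex-linked genes also differed between the arrays. Xist, transcribed from the inactive X chromosome, read 2729 on the wild type array, 6152 on the Line 6 array and 5155 on the Line 3 array. Eif2s3y, on the Y chromosome, read 2325, 978 and 1031. Both genes were present on every array, and their balance moved with genotype. Of 320 measured genes of chromosome X, 11 were higher in Line 6 (3.44%) and 4 lower (1.25%), beside 2.57% and 2.41% over all genes. Chromosomes 10 and 3 had 3.92% and 3.53% higher, so no result about chromosome X is drawn. Of 4 measured genes of chromosome Y, 2 were lower (50%) and none higher, with a median of -0.94. The part of the mice's sex in the other differences was not tested.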

How the data were processed

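RNA from Sca-1-positive, lineage-negative marrow was measured on 3 Affymetrix arrays, 1 per genotype. The authors deposited linear intensities per probe set in a series value table. The deposited table came with a summary method not given in the sources used here. Each column's trimmed mean was 497, so the arrays were used at that scale with no further normalization. Probe sets (45037) were named through GEO's platform annotation: 34945 had 1 symbol, 932 several and 9160 none, and 34741 were updated by Entrez ID. No column of any other sample was present (0 columns).

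From these, log2(intensity + 16) was taken, the brightest probe set by mean over the 3 arrays stood for each gene, and genes were kept when at least 1 array passed that array's median. The difference is Line 6 minus wild type, and 2-fold is the call. No p-value, correlation or set test was computed, since each genotype has 1 array. Named genes are the 20 most changed each way, those bright on both arrays, those whose probe sets all moved, and the list members. The members and gene lists were chosen with earlier results of these data known. Alternatives were the scaling, pseudocount, filter, fold and probe set rule, with unnamed probe sets added after the data were seen. The scripts were tested on simulated data. Python 3.11.15, numpy 2.4.6, pandas 2.3.3, matplotlib 3.10.9, R 4.3.3 and limma 3.58.1 (cyclic loess) were used. Promoter sequences are RefSeq's, GRCm38.p6, and both motifs and the promoters shown were chosen after the values were seen. The number of arrays limits the precision.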

Additional observations from a re-analysis of the deposited data

Results flagged for a closer look

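Akap12, a scaffold for protein kinase A, was above wild type in one line and below it in the other. Its probe set read 309 on the wild type array, 1264 on the Line 6 array and 127 on the Line 3 array, which is 1.98 above wild type in Line 6 and -1.18 in Line 3. Each line has 1 array, so this difference was not tested.

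The probe sets with no gene name lie outside the gene-level comparison, and 388 of 2962 were at least 2-fold higher in Line 6, against 109 in Line 3. The share higher in Line 6 was 13.1% as deposited and 7.46%, 8.88% and 8.44% after centring, quantile normalization and cyclic loess, where named probe sets gave 1.27%, 1.55% and 1.47%. What they detect was not tested.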

How the results depend on the processing

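No paired analysis was possible because each genotype has 1 array, and leaving out a replicate was not possible for the same reason. The count of higher genes, 279 as deposited, was 177 after quantile normalization, 144 after centring, 171 after cyclic loess, 679 with no brightness filter, 60 with the 75th percentile as the filter, 125 with a pseudocount of 64, 1007 at 1.5-fold and 63 at 3-fold. The count of lower genes, 262 as deposited, was 468 after centring, 584 with no filter, 158 with the 75th percentile, 753 at 1.5-fold and 68 at 3-fold. Ighm reversed from 0.15 to -1.35 as the median of its probe sets and to -1.63 at its plain probe set. Of 159 named or listed genes past 2-fold, 57 of 82 higher and 76 of 77 lower stayed past it under all 3 other scalings. All 3 lowered the overall median, and centring cannot remove a lower call, so the 2 counts are not a like comparison. Medians of 22 of 56 lists changed sign under a scaling. The cause was not tested. Of the 279 higher genes, 143 lie in the dimmest of the 8 brightness bins.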

Other observations

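Gene families grouped by symbol stem, 186 with at least 8 measured members, were also counted. Over all genes 2.57% were higher and 2.41% lower. Interleukin and interleukin receptor genes had 8 of 35 lower in Line 6 (22.9%) and 1 higher, with a median of -0.05. Toll-like receptors had 5 of 11 lower (45.5%) and C-type lectins 3 of 13 (23.1%). Solute carriers, the transporters of small molecules, had 7 of 199 higher and 7 lower (3.52% each way), near the shares over all genes, so no result about them is drawn. Zinc finger genes with the Zfp stem had 3 higher and 1 lower of 246. Of these 172 lay above 0, with a median of 0.20, where 57.6% of all genes lay above 0 with a median of 0.06. That median is smaller than the shift of the overall median under centring, from 0.06 to -0.17, so no direction is given for them. Members of a family can cross-hybridise, and stems were grouped by letters alone.

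Measured genes next to each other on a chromosome and past 2-fold in the same direction formed 11 runs on the higher side and 23 on the lower. Over all genes 2.57% were higher and 2.41% lower. The number of runs that unrelated positions would give was not computed, so no result about position is drawn. The higher runs include Rag1 with Rag2 and Blnk with Dntt. The lower runs include Trem1 with Trem3, Clec4d with Clec4e, Slfn1 with Slfn4, Chit1 with Chil1, and Stfa2l1 with Stfa3, a pair of stefins of neutrophils. Stfa2l1 read 7563 on the wild type array, 2216 on the Line 6 array and 467 on the Line 3 array. Such neighbours are often duplicated genes with similar sequence, so shared probes were not separated from shared change.

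Further genes past 2-fold were bright on both arrays. Cd33, a sialic acid receptor of myeloid cells, read 3657, 1037 and 424, and Osm, the cytokine oncostatin M, read 2063, 631 and 1119. Ccr3, the eotaxin receptor of eosinophils, read 736, 1677 and 797, high in Line 6 alone.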
